A study of Mus musculus with 2 samples.

Results

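The 9 genes described here, Acp5, Ctsk, Atp6v0d2, Ckb, Dcstamp, Ocstamp, Nfatc1, Oscar and Itgb3, mark osteoclast differentiation and bone resorption, and they were followed in 2 single-cell libraries of subcutaneous tumours. They were taken by symbol, 9 of the 31053 genes in each library, and all 9 were found in both. The members were chosen from earlier results of these data, in which Acp5 and Ctsk led a group of cells, so their levels in cells with Acp5 and Ctsk UMIs are a description and no test was made of them. A UMI (unique molecular identifier) marks 1 captured RNA molecule.

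Osteoclasts are the bone-resorbing cells of the monocyte lineage. RANKL binding to its receptor RANK, with a second signal from immunoreceptors such as OSCAR, raises NFATc1, which switches on the genes for precursor fusion, acid secretion and matrix breakdown. Cells that stain for the Acp5 product, tartrate-resistant acid phosphatase, are known from bone, and related multinucleated giant cells occur in some soft-tissue tumours.

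The tumours were formed by MC38 cells, a colon carcinoma line of the mouse, and the labels call the tissue a subcutaneous xenograft. The control library came from control tumours and the UBD library from tumours overexpressing UBD (FAT10), which is conjugated to proteins and leads them to the proteasome. Strain, age, the number of tumours behind each library and the promoter driving UBD were not stated in the labels. There was 1 library per group, so no difference has a replicate check, no p-value was computed, and all intervals are 95% intervals that cover counting error only.

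Filtering left 13823 control and 13057 UBD cells, whose median depths were 4334 and 12186 UMIs. The libraries shared 60 barcodes among kept cells, and none of these was positive for both Acp5 and Ctsk in both libraries. Ubd itself was barely detected, at 0.674 CPM (UMIs of the gene per 1000000 summed UMIs) in control and 1.07 CPM in UBD cells. The series' design text names goblet cells, but 6 goblet markers (Muc2, Tff3, Spdef, Clca1, Fcgbp and Zg16) together gave 35 UMIs in control and 18 in UBD cells.

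Cells were grouped by marker UMIs. Double-positive cells had at least 1 UMI of Acp5 and at least 1 of Ctsk, and the high double-positive cells among them had at least 5 of each. Cells outside that gate were called tumour cells with at least 3 UMIs of Cdkn2a and none of Ptprc or Pecam1, T or NK cells with at least 2 UMIs over Cd3d, Cd3e, Cd3g, Ncr1 and Klrb1c, C1q macrophages with UMIs of each of C1qa, C1qb and C1qc, at least 5 together, and none of Ly6c2, and monocytes with at least 2 UMIs of Ly6c2, 1 of Lyz2, none of Siglech and under 5 of the C1q genes. Macrophages and monocytes also had under 3 Cdkn2a UMIs. Each group left out the cells of those before it. These are gates on counts and not clusters. They held 4675 control and 7101 UBD tumour cells, 738 and 589 T or NK cells, 1196 and 1573 C1q macrophages, and 1409 and 102 monocytes. The remaining 5485 control and 1976 UBD cells, 39.7% and 15.1% of those kept, met no gate. Orders of groups given below leave them out unless they are named. Levels in the 102 UBD monocytes rest on few counts, such as 2 UMIs of Nfatc1, 1 of Atp6v0d2 and 3 of Dcstamp.

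Promoter sequences are shown for the gate genes Acp5 and Ctsk and for Oscar, the member outside the gate with the largest part of its UMI-positive cells among the high double-positive cells of both libraries. Of the 9 members, 4 (Acp5, Ctsk, Ckb and Oscar) matched 6 promoters of 300 bases on GRCm38.p6, each running from 250 bases before a transcript start to 50 after it. Capitals mark matches on either strand to GGAAA (the core bound by NFAT factors), GAGGAA (the core bound by PU.1), TGANTCA (AP-1) or TCATGTG (the M-box bound by MITF). The 3 sequences are given 5′ to 3′ on the strand of the gene. The first is the innermost of 3 Acp5 promoters (chr9:22130549-22130848, minus strand), the next is that of Ctsk (chr3:95498960-95499259, plus strand) and the last that of Oscar (chr7:3616108-3616407, minus strand).
Acp5: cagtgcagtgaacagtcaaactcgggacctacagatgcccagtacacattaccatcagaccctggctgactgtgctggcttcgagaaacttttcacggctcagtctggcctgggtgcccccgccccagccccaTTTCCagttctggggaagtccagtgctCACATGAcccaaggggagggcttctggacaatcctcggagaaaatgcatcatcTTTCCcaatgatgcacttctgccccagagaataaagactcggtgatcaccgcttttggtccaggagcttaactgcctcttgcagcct
Ctsk: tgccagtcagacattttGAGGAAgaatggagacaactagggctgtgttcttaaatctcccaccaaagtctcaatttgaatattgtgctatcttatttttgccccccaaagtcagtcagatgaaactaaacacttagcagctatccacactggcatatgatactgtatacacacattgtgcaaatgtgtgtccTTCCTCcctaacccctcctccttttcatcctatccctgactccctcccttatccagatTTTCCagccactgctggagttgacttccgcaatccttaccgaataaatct
Oscar: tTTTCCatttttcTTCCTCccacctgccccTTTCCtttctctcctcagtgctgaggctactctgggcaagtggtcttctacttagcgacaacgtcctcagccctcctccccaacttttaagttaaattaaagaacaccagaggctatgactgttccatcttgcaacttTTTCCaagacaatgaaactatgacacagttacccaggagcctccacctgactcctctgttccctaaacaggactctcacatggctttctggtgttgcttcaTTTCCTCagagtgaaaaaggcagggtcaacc
The Acp5 promoter shown held 2 matches to the NFAT core and 1 to the M-box, written CACATGA on the gene's strand. It is the one of the 3 with the most matches, and each of the others held 1 NFAT core and no M-box or PU.1 core. The Ctsk promoter held 1 NFAT core and 2 PU.1 cores, and the Oscar promoter 4 NFAT cores and 2 PU.1 cores, the last of each overlapping. The NFAT core is short and stood in 61.3% of all 32851 promoters of this length, the PU.1 core in 28.3%, the AP-1 motif in 7.81% and the M-box in 3.77%. No AP-1 match stood in the 6 member promoters. A match describes letters and does not show binding.

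Double-positive cells were found in both libraries and made up a larger share of the UBD library. They were 320 control cells, 2.31% of those kept (2.07 to 2.58), and 1716 UBD cells, 13.1% (12.6 to 13.7), a ratio of 5.68 between libraries that also differed in depth. The high double-positive cells were 109 control cells, 0.789% (0.648 to 0.950), and 738 UBD cells, 5.65% (5.26 to 6.06), a ratio of 7.17. With 1 library per group this ratio describes these 2 libraries.

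The gate of 1 UMI each took in many cells with barely any of either RNA. The lower of the 2 counts was exactly 1 in 143 of the control double-positive cells (44.7%) and in 832 of the UBD ones (48.5%). At least 3 Cdkn2a UMIs, the count used for tumour cells, were seen in 34.1% of control and 45.4% of UBD double-positive cells, against 10.1% and 7.86% of the high double-positive cells. Just inside the limit of 5 UMIs lay 6 control and 15 UBD cells with a lower count of 5, and just outside it 9 and 12 cells with a lower count of 4. Acp5 without Ctsk was seen in 893 control and 1992 UBD cells, and Ctsk without Acp5 in 972 and 2773.

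The high double-positive cells held less RNA of the macrophage and tumour markers than the groups these mark. The macrophage markers include C1qa, C1qb and C1qc, and the tumour markers include Cdkn2a, which also set the gates of those groups. The gates thus pushed these sums apart in advance, and the sums are a description. Markers of macrophages, tumour cells, osteoblasts and fibroblasts are given here, and those of other cell types are not. In high double-positive cells the 7 macrophage markers summed to 1938 CPM in control and 841 CPM in UBD cells, against 23713 and 22954 CPM in C1q macrophages, with UMIs of 7 of 7 markers in each. Csf1r, the receptor for the macrophage growth factor CSF1, was the exception, at 218 and 268 CPM against 230 and 272 CPM in C1q macrophages. The 3 tumour markers summed to 238 and 234 CPM, against 1914 and 1925 CPM in tumour cells, with Krt18 at 0 in the control cells. Of 5 osteoblast markers, 1 had UMIs in control and 3 in UBD high double-positive cells, with Bglap and Alpl at 0 in both. The 5 fibroblast markers summed to 311 and 187 CPM, with no fibroblast group to set beside them. The part of these RNAs in the results below was not tested.

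Acp5 and Ctsk set the gate, so their levels inside it were fixed to be above 0. Acp5 (chr9:22126727-22135711, minus strand, GRCm38), the secreted acid phosphatase used to stain osteoclasts, was 5555 CPM in control and 9038 CPM in UBD high double-positive cells. Outside the gate Acp5 was highest in C1q macrophages, at 72.2 CPM (65.3 to 79.5) and 145 CPM (137 to 153), then in T or NK cells at 18.9 and 68.6 CPM and in monocytes at 14.9 and 42.5 CPM. It was lowest in tumour cells, at 1.77 and 7.998 CPM, and the cells that met no gate held 16.3 and 105 CPM. The T or NK and monocyte intervals overlapped in both libraries (15.2 to 23.2 against 11.6 to 18.9 CPM in the control library), so these neighbours were not told apart. Acp5 overlaps 6530413G14Rik on the other strand, and Nfatc1 also overlaps a gene on the other strand. Whether counting used strand is not given in the sources used here.

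Ctsk (chr3:95499256-95509362, plus strand) encodes cathepsin K, the protease that digests bone collagen. Its level was 6780 CPM in control and 8549 CPM in UBD high double-positive cells. Outside the gate tumour cells held 9.85 and 39.1 CPM and C1q macrophages 9.42 and 15.9 CPM. Monocytes held 4.75 and 26.1 CPM (22 and 8 UMIs), and T or NK cells 3.95 and 23.7 CPM. Cells that met no gate held the most, 19.8 and 49.5 CPM. The order of these groups differed from that of Acp5 and was not the same in the 2 libraries. In the control library the tumour and C1q macrophage intervals overlapped (9.28 to 10.5 against 7.06 to 12.3 CPM). The number of Ctsk UMIs per Acp5 UMI was 1.22 and 0.946 in the high double-positive cells, 5.56 and 4.88 in tumour cells, 0.131 and 0.109 in C1q macrophages, and 0.209 and 0.346 in T or NK cells. The tumour cells and the macrophages lay on opposite sides of the high double-positive cells in both libraries. The gate took cells with both RNAs out of these groups, which bears on their ratios.

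**Figure D1:**
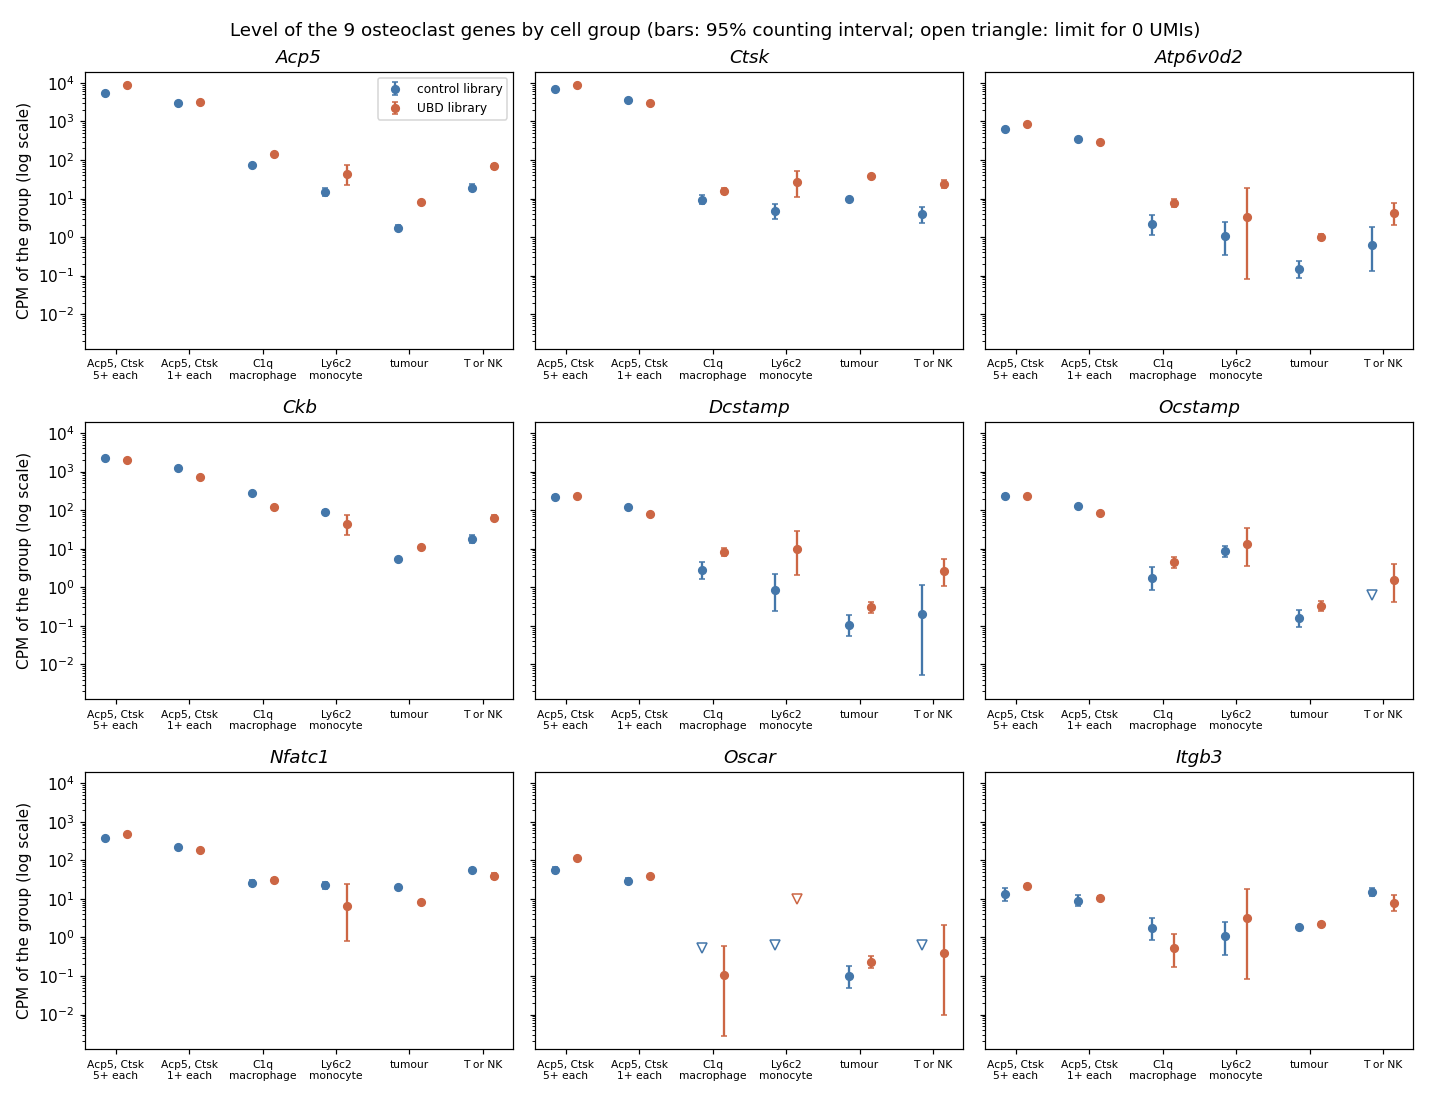
Level of each of the 9 genes (CPM of summed UMIs, log axis) in 6 cell groups of the control library (blue) and the UBD library (orange), with 95% counting intervals and open triangles at the 3-count limit where no UMI was seen. All 9 genes were highest in the cells with at least 5 Acp5 and 5 Ctsk UMIs except Itgb3 in the control library, where T or NK cells stood at 15.4 CPM.

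Outside Acp5 and Ctsk, 7 members remained to show how much of the programme the cells carried. All 7 were higher in high double-positive cells than in C1q macrophages of the same library, by at least 1.5-fold, the limit used for every count of higher or lower genes here, without regard to the interval. Among all genes with at least 20 summed UMIs, 25.1% were higher by that rule in control and 27.3% in UBD cells. The members were chosen from such cells, so nothing is read from that count. In the whole double-positive gate the count was also 7 of 7, where 31.8% of genes in control and 43.8% in UBD cells were higher.

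Nfatc1, the master transcription factor of the lineage, was 379 CPM (353 to 407) in control and 495 CPM (482 to 509) in UBD high double-positive cells. C1q macrophages held 26.0 and 30.3 CPM, monocytes 22.4 and 6.53 CPM, tumour cells 19.9 and 8.35 CPM, and T or NK cells, which use NFATc1 after receptor signalling, 56.1 and 39.5 CPM. Among these groups the lymphocytes came next below the high double-positive cells, with intervals of 49.6 to 63.2 and 32.2 to 47.8 CPM. C1q macrophages followed, with an interval of 21.9 to 30.5 CPM that lay apart in the control library and one of 26.8 to 34.0 CPM that overlapped in the UBD library, so these neighbours were told apart only in the control library. Cells that met no gate lay between the lymphocytes and the C1q macrophages, at 29.8 and 38.5 CPM. In the control library 19.04% of all Nfatc1 UMIs lay in double-positive cells and 47.7% in tumour cells. In the UBD library the shares were 73.5% and 14.8%.

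Oscar, the collagen-binding receptor that gives the co-stimulating signal to osteoclast precursors (chr7:3609813-3616157, minus strand), was almost absent from macrophages, monocytes and lymphocytes. It was 57.3 CPM (47.5 to 68.5, from 119 UMIs) in control and 112 CPM (105 to 118, from 1152 UMIs) in UBD high double-positive cells. C1q macrophages held 0 and 1 UMI, monocytes 0 and 0, T or NK cells 0 and 1, and tumour cells 11 and 32 UMIs in 4675 and 7101 cells. A count of 0 in control C1q macrophages allowed up to 0.533 CPM, so the control level was at least 107-fold higher. Cells with 2 or more Oscar UMIs numbered 27 in control and 247 in UBD cells, and 100% of them in both were double-positive. Double-positive cells with under 5 UMIs of either gate gene held 1 and 7 Oscar UMIs in 211 and 978 cells.

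Itgb3, the beta chain of the integrin by which osteoclasts attach to bone (chr11:104608000-104670476, plus strand), was the member with the smallest part of its RNA in the gate. High double-positive cells held 13.5 CPM (8.96 to 19.5, from 28 UMIs) in control cells and 21.7 CPM (18.99 to 24.8, from 224 UMIs) in UBD cells. T or NK cells held 15.4 CPM (12.1 to 19.3) and 8.04 CPM (4.98 to 12.3), tumour cells 1.86 and 2.18 CPM, and C1q macrophages 1.78 and 0.533 CPM. In the control library the high double-positive and the T or NK intervals overlapped, so Itgb3 did not tell these cells apart there. Of all Itgb3 UMIs, 7.86% in control cells and 43.3% in UBD cells lay in double-positive cells, and 43.9% and 41.2% in tumour cells.

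The fusion genes Dcstamp and Ocstamp encode membrane proteins needed for mononuclear precursors to merge. Dcstamp (chr15:39745930-39760938, plus strand) was 222 CPM (203 to 244) in control and 227 CPM (217 to 236) in UBD high double-positive cells, against 2.84 and 8.20 CPM in C1q macrophages, 0.863 and 9.80 CPM in monocytes and 0.108 and 0.304 CPM in tumour cells. Ocstamp (chr2:165393760-165400405, minus strand) was 235 CPM in both libraries' high double-positive cells (214 to 257 and 225 to 244). Monocytes came next for Ocstamp, at 8.63 CPM (6.17 to 11.8) in control cells and 13.1 CPM (3.56 to 33.5, from 4 UMIs) in UBD cells, above C1q macrophages at 1.78 and 4.47 CPM. In the control library the monocyte interval did not reach that of the macrophages (0.853 to 3.27 CPM), and monocytes held 6.06% of all Ocstamp UMIs. For Dcstamp the monocyte and C1q macrophage intervals overlapped in both libraries (0.235 to 2.21 against 1.63 to 4.62 CPM in the control library). Droplets hold RNA of 1 cell or of a merged cell alike, so detection of fusion genes does not show that cells had fused.

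Atp6v0d2 encodes the d2 subunit of the proton pump's membrane sector, a form found in osteoclasts beside the widely used d1 form (chr4:19876841-19922605, minus strand). It was 637 CPM (603 to 672) in control and 832 CPM (815 to 850) in UBD high double-positive cells. C1q macrophages held 2.13 and 7.88 CPM, monocytes 1.08 and 3.27 CPM, tumour cells 0.153 and 0.985 CPM and T or NK cells 0.623 and 4.21 CPM. Of its UMIs 94.8% in control cells and 95.7% in UBD cells lay in double-positive cells. Atp6v0d1, the ubiquitous paralog, went the other way, at 99.2 and 95.6 CPM in the high double-positive cells against 138 and 126 CPM in C1q macrophages.

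Ckb, the brain-type creatine kinase that buffers ATP in cells with high demand (chr12:111669361-111672338, minus strand), was 2283 CPM (2219 to 2349) in control and 2045 CPM (2018 to 2073) in UBD high double-positive cells. Of the 7 members outside the gate it had the highest level in C1q macrophages, at 282 CPM (268 to 296) and 121 CPM (114 to 128), with monocytes at 88.9 and 42.5 CPM, T or NK cells at 17.9 and 63.6 CPM and tumour cells at 5.32 and 11.1 CPM. Of control C1q macrophages 47.5% held a Ckb UMI, and of UBD ones 37.1%. The high double-positive level was 8.10-fold that of C1q macrophages in the control library (7.65 to 8.58) and 16.9-fold in the UBD library (15.9 to 17.99). Nfatc1 stood at 14.6-fold and 16.4-fold in the same comparison, and Itgb3, from 10 and 5 macrophage UMIs, at 7.58-fold (3.57 to 17.5) and 40.8-fold (17.2 to 127).

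Each cell was then scored by how many of the 7 members outside the gate it held. To compare cells of unequal depth, each was thinned at random to 2000 UMIs. Every group had its own single draw, so the counts of a group and of its subset can disagree. The intervals leave out the error of that draw. Cells below that depth dropped out, which were 51 control and 19 UBD double-positive cells and 226 and 117 C1q macrophages. At that depth at least 3 of the 7 were found in 67 of 269 control double-positive cells, 24.9% (19.9 to 30.5), and in 469 of 1697 UBD ones, 27.6% (25.5 to 29.8), with overlapping intervals. Among high double-positive cells the shares were 54.3% (44.3 to 64.0) and 62.7% (59.1 to 66.2). The same was seen in 0 of 970 control C1q macrophages, which allows up to 0.309%, and in 1 of 1456 UBD ones. It was seen in none of the monocytes (1153 and 93 cells), tumour cells (4482 and 7060) or T or NK cells (611 and 418). In T or NK cells the count of 0 allows up to 0.491% of control and 0.718% of UBD cells. At full depth 3 of 738 control and 4 of 589 UBD T or NK cells had at least 3 of the 7. All 4 of these groups leave out cells with both Acp5 and Ctsk UMIs, so their shares give no measure of free RNA.

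At full depth at least 3 of the 7 were found in 87.2% of control and 91.6% of UBD high double-positive cells, at median depths of 18552 and 12715 UMIs. All 7 were found together in 13 control (11.9%) and 110 UBD cells (14.9%), and none of the 7 in 0 and 2 cells. C1q macrophages at full depth reached 3 of the 7 in 3 of 1196 control and 18 of 1573 UBD cells, at median depths of 4108 and 5644 UMIs, and none reached 4. Members were missed to different extents. Thinned to 2000 UMIs, Ckb was found in 81.9% and 67.2% of high double-positive cells, Atp6v0d2 in 66.7% and 75.9%, Nfatc1 in 40.0% and 60.8%, Ocstamp in 35.2% and 36.2%, Dcstamp in 34.3% and 33.5%, Oscar in 6.67% and 18.7%, and Itgb3 in 2.86% and 4.22%. For Itgb3 the share in T or NK cells at that depth was 4.09% (2.67 to 5.98) in control and 1.44% (0.529 to 3.098) in UBD cells, with intervals that overlapped those of the high double-positive cells (0.593 to 8.12 and 2.89 to 5.94).

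**Figure D2:**
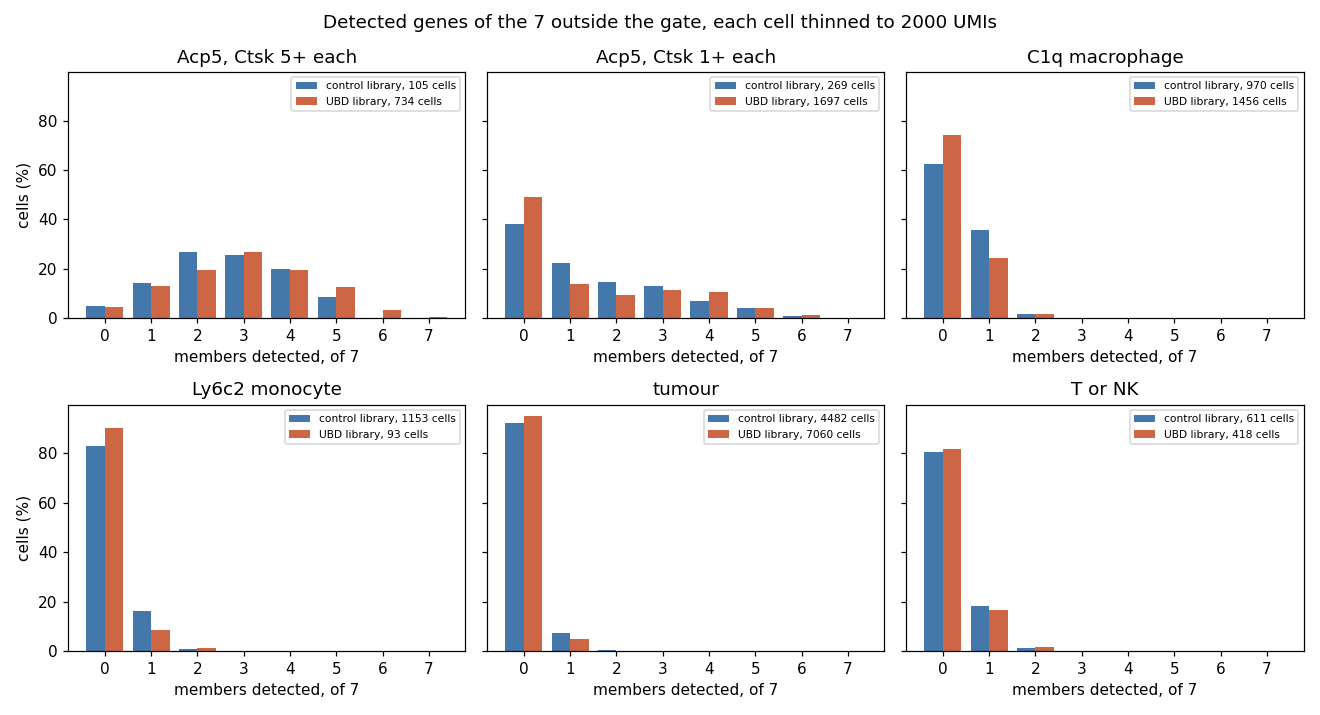
Share of cells (%) by the number of the 7 members outside the gate that were detected after thinning to 2000 UMIs, in 6 cell groups of the control (blue) and UBD (orange) library, with the number of cells in each key. Cells with 3 or more members were 54.3% and 62.7% of those with at least 5 Acp5 and 5 Ctsk UMIs, and only 1 C1q macrophage of the UBD library lay there in the other 4 groups.

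The number of members detected was higher where a cell held more Acp5 and Ctsk. From a lower count of 1, through 2 to 4, 5 to 19 and 20 to 99, up to 100 or more, the mean number of the 7 members was 0.888, 1.32, 2.71, 4.69 and 5.89 in control and 0.668, 1.34, 2.65, 4.48 and 5.99 in UBD cells. The share of cells with at least 3 of the 7 was 6.29% and 3.005% in the lowest range and 100% in the highest, which held 46 control and 374 UBD cells. The lower count rises with depth and with how much of the RNA is Acp5 and Ctsk, and median depth along the ranges was 4597, 2718.5, 2827, 16037 and 23284 UMIs in the control library and 16887.5, 10979, 10648, 11330 and 13864.5 UMIs in the UBD library. Depth was thus highest at the top range in control cells and at the lowest range in UBD cells, and its part in the rise was not tested. The share of cells with at least 3 Cdkn2a UMIs also fell from the lowest to the highest range, as given below. The part of this changing mix of cells in the rise was not tested.

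By the share of cells with a UMI, members rose in different ranges, and not in the same order in both libraries. Atp6v0d2 and Nfatc1 were already in 81.3% and 75.8% of UBD cells with a lower count of 5 to 19, where Dcstamp was in 30.8%, Ocstamp in 24.2% and Oscar in 2.20%. In the 24 control cells of that range Atp6v0d2 was in 58.3%, Dcstamp in 37.5%, Nfatc1 and Ocstamp each in 33.3% and Oscar in 4.17%. By this share the early rise of Nfatc1 was seen only in the UBD library. Median depth in that range was 2827 UMIs in control and 10648 UMIs in UBD cells. As a level, Nfatc1 rose early in both libraries. It was 38.6 CPM in the lowest range, 188 CPM at 5 to 19 and 449 CPM in the highest range of control cells. In UBD cells it was 19.1, 294 and 563 CPM. The part of depth in the shares was not tested. Oscar rose last, from 26.4% of UBD cells at 20 to 99 to 77.0% at 100 or more, and from 17.9% to 67.4% in the control library, where its level reached 89.9 CPM against 182 CPM in the UBD library. Itgb3 was above 10% only in the highest range, at 28.3% and 31.6%. Ckb differed between libraries in the middle range, in 95.8% of 24 control cells and 49.5% of 91 UBD cells. Cells with at least 3 Cdkn2a UMIs fell from 50.3% to 10.9% along the same ranges in control and from 75.0% to 5.61% in UBD cells.

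**Figure D3:**
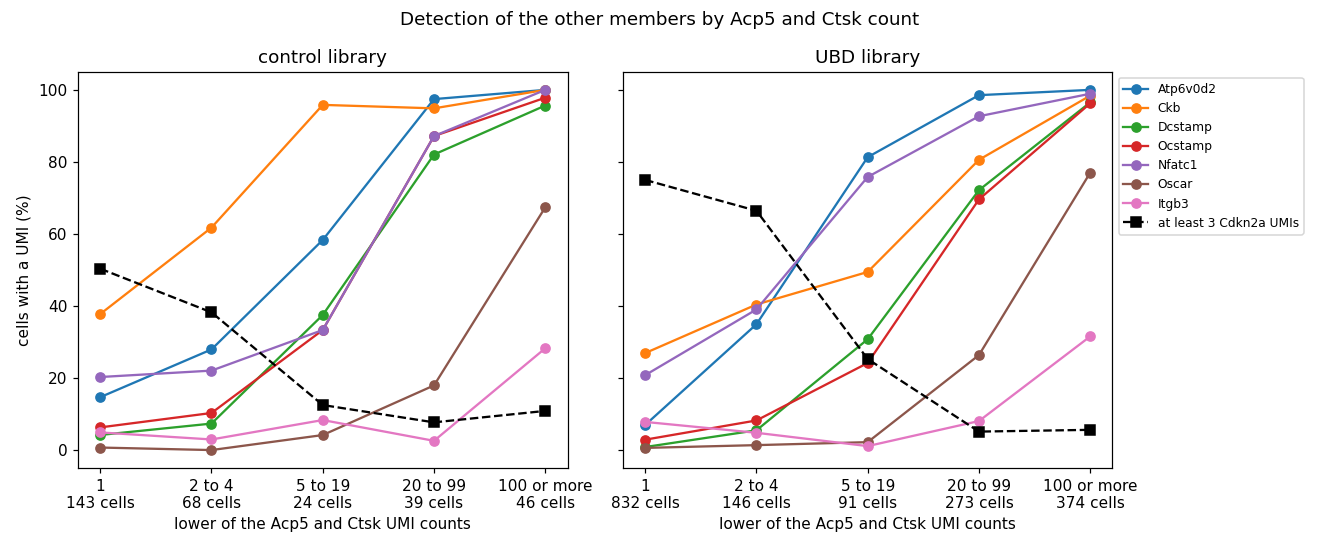
Share of double-positive cells (%) with a UMI of each of the 7 members outside the gate (coloured lines) and with at least 3 Cdkn2a UMIs (dashed) by the lower of a cell's Acp5 and Ctsk counts, for the control (left) and UBD (right) library, with the number of cells under each range. Oscar and Itgb3 rose last, to 67.4% and 28.3% in control cells and 77.0% and 31.6% in UBD cells at counts of 100 or more.

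Co-detection was counted for all 36 pairs of members over all kept cells. Every pair was found together in more cells than the product of the 2 genes' shares gives, in both libraries, with medians of 3.89 and 3.13 times the product. The highest was Dcstamp with Oscar, at 65.1 times in control cells and 14.5 times in UBD cells. The lowest was Ckb with Nfatc1 at 1.11 times in the control library, and Acp5 with Ctsk at 1.35 times in the UBD library, where 28.4% of cells held an Acp5 UMI and 34.4% a Ctsk UMI. Cells differ in depth and in type, which moves all such pairs upward, so these are descriptions. The ratio also cannot pass 1 over the larger share of the pair, so it is held lower where a gene is common. Dcstamp was in 1.06% of control and 5.68% of UBD cells, so its ratios in the 2 libraries are not on 1 scale.

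The fusion genes were often found in the same cells. Of control cells with Dcstamp 55.1% held Ocstamp, against 1.02% of cells without Dcstamp, and of UBD cells 70.0% against 1.84%. Most cells with Oscar also held Dcstamp, 69.2% of control and 82.4% of UBD ones, whereas 24.5% and 45.6% of cells with Dcstamp held Oscar. Within the high double-positive cells, 19 of 21 pairs of the members outside the gate in control cells and 21 of 21 in UBD cells were above the product, with medians of 1.11 and 1.04 times. Most members are common there, which holds these ratios near 1 whatever the co-detection. Atp6v0d2 with Itgb3 stood at its limit in UBD cells, at 1.03 times, as all 141 cells with Itgb3 held Atp6v0d2. The pair farthest above the product was Oscar with Itgb3, the least common members there, at 2.27 and 1.72 times. Itgb3 was in 33.3% of control and 32.9% of UBD high double-positive cells with Oscar, against 4.29% and 5.85% of those without.

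Most RNA of 4 members outside the gate lay in double-positive cells of both libraries. Double-positive cells held 94.8% and 95.7% of Atp6v0d2 UMIs, 90.9% and 96.6% of Oscar, 86.4% and 92.1% of Dcstamp, and 78.6% and 94.3% of Ocstamp UMIs, beside 90.3% and 96.0% of Acp5 and 88.7% and 93.6% of Ctsk, which define the gate. Ckb stood at 50.03% in control cells and 86.0% in UBD cells, and Nfatc1 and Itgb3 lower still in the control library. These shares also move with how many double-positive cells a library held.

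Between libraries, the members' levels within the cells depended on the gate and on how cells were pooled. In the whole double-positive gate 0 of 7 members outside the gate were at least 1.5-fold higher in the UBD than in the control library and 2 were lower, where 14.7% of 12658 genes were higher and 15.8% lower. Ckb was 729 CPM against 1235 CPM, a ratio of 0.590 (0.572 to 0.608), and Ocstamp 83.3 against 127 CPM, a ratio of 0.656 (0.596 to 0.722). In the high double-positive cells neither was past the limit, with Ckb at a ratio of 0.896 (0.868 to 0.925) and Ocstamp at 0.999 (0.906 to 1.10). With the whole gate but each cell weighted equally, 4 of 7 were higher and 0 lower, and Ocstamp had a log2 ratio of 0.23. No share over all genes is given for that weighting, so nothing is read from this count. In the high double-positive cells 2 of 7 were higher and 0 lower, where 8.96% of 10501 genes were higher and 15.1% lower.

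The 2 higher members were Oscar and Itgb3, the latter from 28 control UMIs. Oscar was 112 CPM in the UBD and 57.3 CPM in the control high double-positive cells, a ratio of 1.95 (1.62 to 2.38), and Itgb3 was 21.7 against 13.5 CPM, a ratio of 1.61 (1.09 to 2.48). With only the double-positive cells under 3 Cdkn2a UMIs, 211 control and 937 UBD cells, the ratios were 2.08 (1.71 to 2.55) and 1.75 (1.17 to 2.72). Atp6v0d2 and Nfatc1 each stood at 1.31 (1.23 to 1.39 and 1.21 to 1.41) in the high double-positive cells, and Dcstamp at 1.02 (0.922 to 1.13). Of the gate genes, Acp5 was at 1.63 and Ctsk at 1.26 there. Median depth of the high double-positive cells was 18552 UMIs in control cells and 12715 UMIs in UBD cells, and the share of cells with at least 3 Cdkn2a UMIs was 10.1% and 7.86%. Their part in the ratios was not tested.

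**Figure D4:**
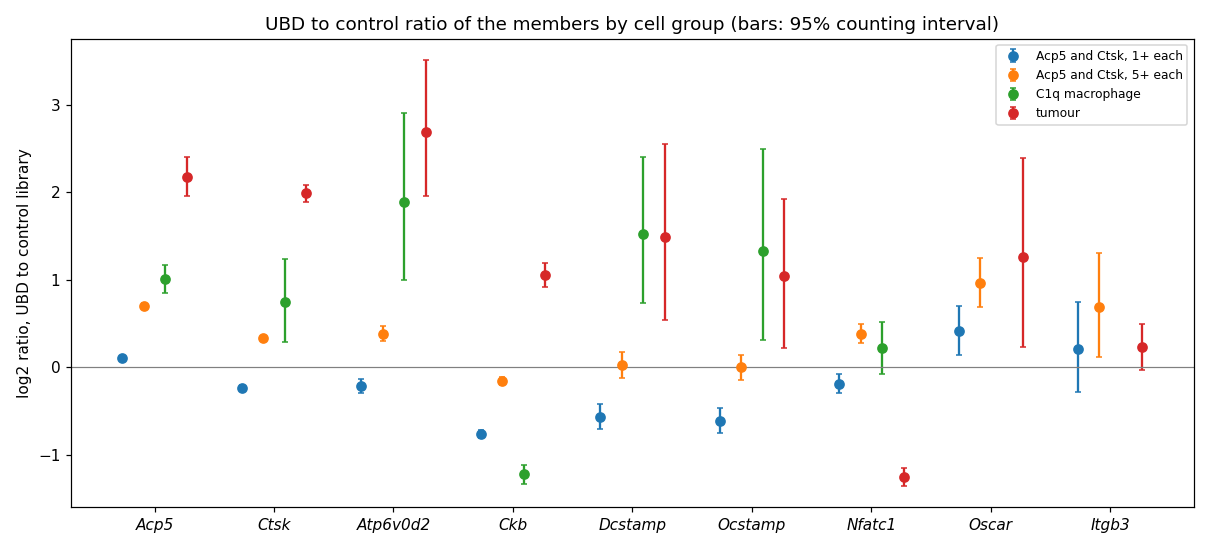
Log2 ratio of the UBD to the control library for each of the 9 genes in 4 cell groups, with 95% counting intervals and points only where at least 20 UMIs were summed. Ckb and Ocstamp lay below 0 in all double-positive cells and above 0 in tumour cells, and Oscar lay above 0 in the 3 groups where it was measured.

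Outside the double-positive cells the members were low but also differed between libraries. In C1q macrophages 3 of the 5 members measured outside the gate, Atp6v0d2, Dcstamp and Ocstamp, were higher in the UBD library, at ratios of 3.70 (1.99 to 7.47), 2.88 (1.67 to 5.30) and 2.52 (1.24 to 5.62), as were Acp5 at 2.01 and Ctsk at 1.68, while Ckb was lower at 0.429 (0.397 to 0.463). Among all genes there 8.37% were higher and 20.7% lower. In tumour cells 5 of the 7 were higher and Nfatc1 was lower, at 0.420 (0.390 to 0.451), where 9.09% of genes were higher and 20.1% lower. In T or NK cells 5 of the 9 genes had enough UMIs, and they did not move one way. Acp5 stood at a ratio of 3.63 (2.80 to 4.72), Ctsk at 6.02 (3.55 to 10.7) and Ckb at 3.56 (2.73 to 4.67). Nfatc1 stood at 0.703 (0.555 to 0.886) and Itgb3 at 0.523 (0.306 to 0.859). Double-positive cells held most UMIs of Acp5, Ctsk, Atp6v0d2, Dcstamp and Ocstamp in both libraries and were 5.68 times more frequent in the UBD library. The part of free RNA in these ratios was not tested.

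Other genes of the pathway were followed in a list of 32, written with earlier results known. Between high double-positive cells and C1q macrophages, 15 of 30 measured genes were higher and 8 lower in the control library, with a median log2 ratio of 0.52 beside 0.01 over all genes, where 25.1% of all genes were higher and 26.6% lower. In the UBD library 19 of 32 were higher and 6 lower, with a median of 1.10 beside 0.11, where 27.3% were higher and 22.6% lower. In the whole double-positive gate 11 of 30 were higher and 11 lower in the control library, where 31.8% of all genes were higher and 20.9% lower. In the UBD library 13 of 32 were higher and 9 lower, beside 43.8% and 17.5% of all genes, so the shares that were higher lay near those of all genes.

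Of the 6 receptors and adaptors, Tnfrsf11a, which encodes the RANKL receptor RANK, was higher in both libraries, at 81.8 against 41.4 CPM in the control (ratio 1.98, 1.61 to 2.42) and 75.5 against 32.1 CPM in the UBD library (2.36, 2.06 to 2.70). Fcer1g and Trem2, an adaptor and a receptor of the same osteoclast list, were lower in both. Fcer1g was 1183 against 4942 CPM and 621 against 3463 CPM, and Trem2 104 against 390 CPM and 38.2 against 398 CPM. The partner adaptor Tyrobp was close to 1, at 0.987 in control cells and 0.955 in UBD cells. Of 7 transcription factors, Mitf, Jdp2 and Prdm1 were higher in both libraries, Mitf at ratios of 3.54 and 3.85 and Prdm1 at 3.02 and 5.66. Jdp2, an AP-1 family member that takes part in osteoclast formation, was 393 against 39.8 CPM and 468 against 47.2 CPM. Spi1, which encodes PU.1, stood at a ratio of 1.26 and 1.32. Fos stood at 0.377 and 1.08, and Fosl2 at 0.868 and 1.83, so both were past the limit in 1 library each.

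Irf8 and Bcl6, transcription factors that hold osteoclast differentiation back, were both lower in the high double-positive cells. Irf8 was 23.6 against 222 CPM in control cells and 15.6 against 193 CPM in UBD cells, and Bcl6 2.89 against 20.3 CPM and 2.23 against 11.3 CPM. Irf8 is also a general macrophage factor, and its lower level moved with that of the macrophage markers given above.

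The 9 genes of acid secretion held the most that were higher, 7 in control cells and 8 in UBD cells, and none was lower. Car2, the carbonic anhydrase that supplies the protons, was 214 against 1.42 CPM and 342 against 1.60 CPM. Slc9b2, a sodium and proton exchanger, was 209 against 1.07 CPM (6 UMIs) and 359 against 3.52 CPM. Tcirg1, the pump's osteoclast a3 subunit, was 373 against 167 CPM and 396 against 115 CPM, and Snx10, a sorting protein needed for resorption, 296 against 59.9 CPM and 463 against 60.4 CPM. Among 3 proteases, Mmp9, a gelatinase abundant in osteoclasts, was 3560 against 34.8 CPM and 5220 against 32.7 CPM, and Ctsb, a lysosomal protease of macrophages, was lower at 623 against 3091 CPM and 435 against 1947 CPM. Of 3 adhesion genes, Itgav, which pairs with Itgb3, was higher at 141 against 71.1 CPM and 243 against 75.4 CPM, and Src, needed for the ruffled border, at 85.7 against 5.51 CPM and 94.8 against 15.5 CPM. Cd44, a receptor for hyaluronan, stood at ratios of 0.647 and 0.823. Mmp14, a membrane-bound metalloproteinase, was 278 against 116 CPM and 311 against 159 CPM.

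The late surface markers were scarce. Calcr, the calcitonin receptor that marks mature osteoclasts, was 6.74 CPM from 14 UMIs in control and 5.83 CPM from 60 UMIs in UBD high double-positive cells, and 0 in C1q macrophages of both libraries. Siglec15, a sialic acid receptor of osteoclasts, was 4.81 CPM from 10 UMIs and 4.95 CPM from 51 UMIs, against 0 and 1 UMI in C1q macrophages. Between libraries, 7 of the 32 pathway genes were higher in the UBD high double-positive cells, among them Car2 (1.60, 1.45 to 1.77), Slc9b2 (1.72, 1.56 to 1.90) and Itgav (1.73, 1.53 to 1.96), and 4 were lower, among them Irf8, where 8.96% of all genes were higher and 15.1% lower. The share that was lower lay near that of all genes. In the whole double-positive gate none was higher and 10 were lower, where 14.7% of all genes were higher and 15.8% lower.

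**Figure D5:**
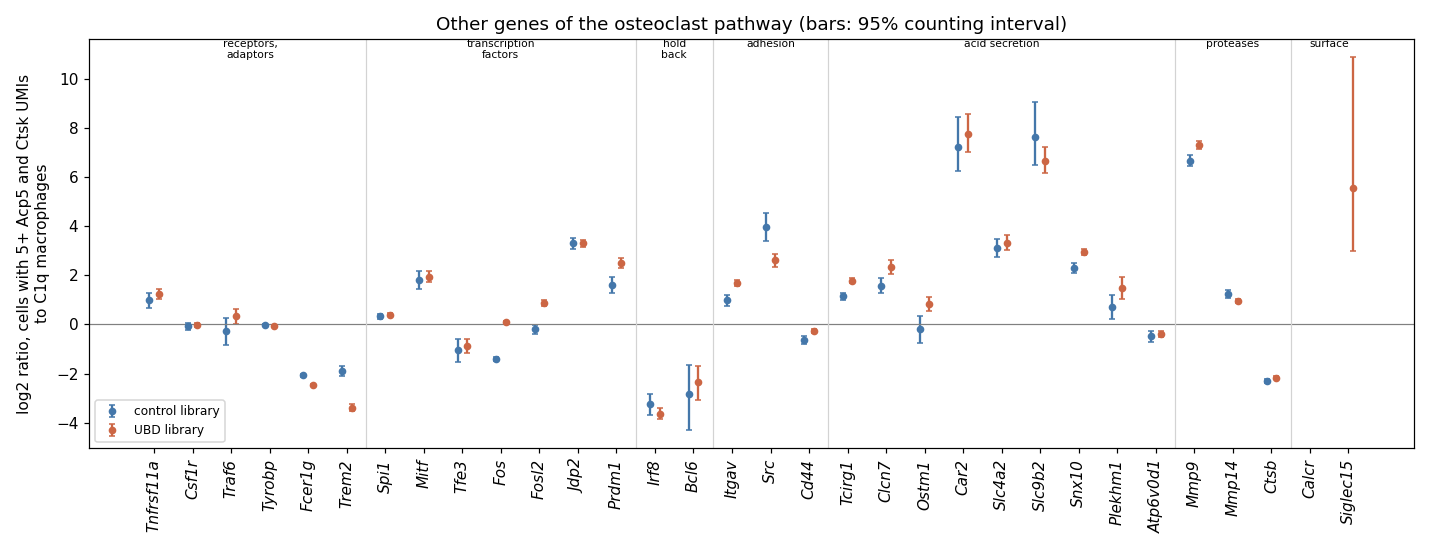
Log2 ratio of cells with at least 5 Acp5 and 5 Ctsk UMIs to C1q macrophages for 32 further osteoclast pathway genes by role, in the control (blue) and UBD (orange) library, with 95% counting intervals. Acid secretion genes such as Car2 and Slc9b2 lay far above 0 and Irf8 and Bcl6 below it in both libraries, and no point is drawn for Calcr or for control Siglec15, which had no UMI in C1q macrophages.

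Genes whose level ran most like the mean of the 7 members were ranked by Pearson's r over 12 profiles (6 cell groups in 2 libraries), among 12755 genes. The 8 highest were Xpr1 (0.973), Fam57b (0.952), Abcb4 (0.948), Nyap2 (0.947), Mmp9 (0.946), Ephx2 (0.944), Plxna4 (0.943) and Mst1r (0.940). Xpr1, a phosphate exporter, was 284 CPM in control and 303 CPM in UBD high double-positive cells against 33.4 and 47.2 CPM in C1q macrophages. Mst1r, the receptor for macrophage-stimulating protein, was 53.4 and 106 CPM against 0.178 and 0.213 CPM. The profiles share libraries and the double-positive group, so r describes likeness across these groups only.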

How the data were processed

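Droplet single-cell RNA sequencing with a 3′ v3 chemistry was run on 2 libraries, per the labels' protocols. For each library the authors deposited a sparse matrix of raw UMI counts, genes by barcodes. Cell Ranger, STAR and mm10 are named in the submitters' processing notes, and the matrices carry software version 3.1.0, per the file headers. Which annotation and cell-calling rule were used is not given in the sources used here.

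Barcodes needed 200 or more genes, 500 or more UMIs and no more than 20% mitochondrial UMIs (14353 of 14890 control and 13619 of 14158 UBD), and doublets predicted by Scrublet in scanpy at an expected rate of 0.1 were removed (530, 3.69%, and 562, 4.13%). The kept cells held 164694644 and 190086511 UMIs. UMIs were summed per gate and scaled to CPM. Levels have exact Poisson intervals, shares Clopper-Pearson intervals and ratios exact conditional binomial intervals, all at 95%. A count of 0 was given a limit of 3 counts. Ratios were computed across all genes with at least 20 summed UMIs, and a gene was called higher or lower at a ratio of at least 1.5 either way, whatever its interval. The ratio interval was tested on simulated data. Thinning used seed 1, started anew for each group. Gene coordinates come from GENCODE vM21 on GRCm38 and promoters from RefSeq on GRCm38.p6.

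The members, gates, lists and 12 alternatives were chosen with earlier results of these data known. All 9 members are named. Of the pathway list, up to 4 genes per role with the most UMIs in double-positive cells are given with values, with Tnfrsf11a, Calcr, Mmp9, Tcirg1 and Irf8. A gene of that list is not reported here and enters no count of it. Mitf and Prdm1, outside that rule, were named after their values were seen. Versions were Python 3.11.15, numpy 2.4.6, scipy 1.17.1, pandas 2.3.3, scanpy 1.11.5, anndata 0.12.19 and matplotlib 3.10.9.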

Additional observations from a re-analysis of the deposited data

Results flagged for a closer look

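Ckb moved in opposite directions between the libraries in different cells. Its log2 ratio of UBD to control was 1.06 in tumour cells and 1.83 in T or NK cells, but -0.76 in double-positive cells, -1.22 in C1q macrophages and -1.07 in monocytes, each with a counting interval that excluded 0. Ocstamp did likewise, at 1.33 in C1q macrophages and 1.04 in tumour cells against -0.61 in double-positive cells. That value did not hold, at -0.0014 with at least 5 UMIs of each gate gene, 0.069 under 3 Cdkn2a UMIs and 0.23 with each cell weighted equally, where Ckb stood at -0.16, -0.13 and -0.078. With 1 library per group the difference between cell groups was not tested. Levels in T or NK and tumour cells were low, with Ckb at 17.9 and 63.6 CPM and at 5.32 and 11.1 CPM in the control and UBD library.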

How the results depend on the processing

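No paired analysis was possible because each group has 1 library and the labels give no replicate numbers. Of the main results' alternative values, 88 kept within 1.5 times or within their counting interval and 41 did not, and the log2 ratios of members kept their sign in 177 of 197 alternatives. The ratio of double-positive shares kept within 1.5 times of 5.68 in all alternatives run, and the count of members higher than in C1q macrophages stayed at 7 in both libraries, except for 6 in the control library with at least 50 summed UMIs, a limit that leaves out Itgb3. The double-positive share (2.31% control, 13.1% UBD) was 1.28% and 6.77% with at least 2 UMIs of each gate gene, 0.789% and 5.65% with at least 5, 1.53% and 7.18% under 3 Cdkn2a UMIs, and 14.3% for UBD with doublets kept. The share with at least 3 of the 7 members (24.9% and 27.6%) was 37.3% and 53.6% with at least 2 gate UMIs, 54.3% and 62.7% with at least 5, 35.8% and 49.8% under 3 Cdkn2a UMIs, 8.20% and 14.1% at 1000 UMIs, 40.3% and 36.2% at 4000 UMIs, 4.83% and 5.60% for at least 5 of the 7 members, and 22.3% for UBD with the stricter cell filter. At 4000 UMIs the control share was thus above the UBD share.

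Members higher in UBD double-positive cells (0) were 1 with at least 2 gate UMIs, 2 with at least 5, 2 under 3 Cdkn2a UMIs and 4 with each cell weighted equally, and members lower (2) were 0 under each of these 4 and 1 with doublets kept. Pathway genes higher (0) were 5, 7, 7 and 7 under the same 4, and lower (10) were 3, 4, 4 and 3, and 1 at a fold of 2. Pathway genes lower than in control C1q macrophages (11) were 7 with at least 2 gate UMIs, 7 under 3 Cdkn2a UMIs and 5 at a fold of 2. The log2 ratio of Ocstamp in double-positive cells (-0.61) turned to 0.069 under 3 Cdkn2a UMIs and to 0.23 with each cell weighted equally. The narrower gates hold fewer cells by construction, and otherwise the cause was not tested. Depth limits Oscar and Itgb3 most, and an absent UMI in a cell does not show an absent RNA.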
